A study of Mus musculus with 2 samples.

Results

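Venous endothelial cells of injured mouse lung were picked out of 2 droplet single-cell libraries by the transcripts each cell carried. A barcode was kept with at least 200 detected genes and at most 10% mitochondrial UMIs. A UMI is 1 counted RNA molecule. Kept barcodes entered an endothelial gate with at least 3 UMIs summed over Cldn5, Cdh5 and Pecam1, at most 1 over Col1a2 and Col3a1, and none of Epcam or Ptprc. The venous gate then asked for at most 1 UMI of the arterial genes Gja5 and Bmx together, at least 2 of Vwf, and at least 2 summed over Nr2f2, Slc6a2, Selp and Prss23. It took 533 of 8417 kept WT barcodes and 315 of 7161 kept KI barcodes, 848 of 15578 in all. These were 11.2% and 7.94% of the 4752 and 3965 cells of the endothelial gate.

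The WT library came from wild-type lungs and the KI library from p47phox-KI lungs. Both were of strain C57BL/6 and both carry the label of acute lung injury, and no uninjured control was analysed here. Lungs were perfused, digested with collagenase and sorted after staining for viability and for CD45.2, a leukocyte antigen. How the sort was gated, what caused the injury, how many animals were used and what the knock-in allele carries are not given in the sources used here. With 1 library per genotype there was no test, and genotype and preparation cannot be told apart. Shares are shares of sorted cells.

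Veins collect blood from the capillary bed, and their endothelium is known for holding von Willebrand factor (Vwf) and P-selectin (Selp) in Weibel-Palade bodies, storage granules that fuse with the surface when the cell is stimulated. Nr2f2 encodes COUP-TFII, a nuclear receptor that maintains venous identity by restraining Notch signalling. Slc6a2 encodes the noradrenaline transporter, which lung endothelium uses to clear noradrenaline from blood, and Prss23 encodes a secreted serine protease. p47phox, the product of Ncf1, is the organizing cytosolic subunit of the phagocyte NADPH oxidase.

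Depth per cell was somewhat higher in KI. Gated cells held 3111590 UMIs in WT and 2193822 in KI, with medians of 5397 and 5999 UMIs per cell, against 3385 and 3784.5 in the other cells of the endothelial gate. The cells with a Slc6a2 UMI, described below, had medians of 4573 UMIs in WT and 6177.5 in KI and median mitochondrial shares of 5.98% and 4.84%. Levels below are CPM, a gene's UMIs scaled to 1000000 UMIs of the group of cells. Ratios are log2 of KI over WT with a 95% interval that covers counting error only. No barcode was shared between the gated cells of both libraries. Of the gated cells, 94.7% held Xist UMIs in the WT and 97.5% in the KI library, while Y-linked genes summed to 0 and 2 UMIs.

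Ncf1 (ENSMUSG00000015950, chr5:134220053-134229625 on GRCm38), the targeted gene, had 0 UMIs in WT gated cells, which allows up to 0.964 CPM, and 3 UMIs in KI gated cells. Kept cells outside the endothelial gate read 9.91 CPM of Ncf1 in WT and 9.02 CPM in KI, a log2 ratio of -0.14 (-0.44 to 0.17). The gated cells therefore held too little Ncf1 to check the genotype labels. Its partner Cyba (p22phox), which forms the membrane core of the oxidase with Cybb, read 151 CPM in WT and 175 CPM in KI gated cells, a log2 ratio of 0.21 (0.01 to 0.41). Cybb had 0.964 and 0.912 CPM, and Rac1, the small GTPase of the complex, 621 and 539 CPM.

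The 5 markers used by the gate did not mark the same cells. Prss23 was detected in 96.8% of WT and 94.6% of KI gated cells, Nr2f2 in 37.7% and 40.6%, Slc6a2 in 24.6% and 38.1%, and Selp in 10.3% and 12.4%. Since the gate used these genes, the shares describe it and test nothing. In the aerocyte gate, cells of the gas-exchange capillaries at 3644 and 4279 median UMIs, Slc6a2 was present in 0.369% and 0.757% of cells. After every cell was thinned to 2000 UMIs, Slc6a2 was left in 19.96% of gated cells in WT and 28.0% in KI. Of the cells with Slc6a2, 115 of 131 in WT and 99 of 120 in KI held at least 2 of its UMIs.

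Gated cells were therefore described in 4 groups by which of Slc6a2, Selp and Nr2f2 they held, taken in that order. The order does not name the gene that met the rule. At least 2 Prss23 UMIs, enough for the 4-gene sum, were held by 486 of 533 WT and 274 of 315 KI gated cells. Cells with a Slc6a2 UMI numbered 131 in WT and 120 in KI. Cells with Selp and no Slc6a2 numbered 16 and 11, and cells with Nr2f2 and neither of those 99 and 47. The largest group, 287 WT and 137 KI cells, had none of the 3 and entered on Prss23 and Vwf alone. They made up 53.8% of WT and 43.5% of KI gated cells. Prss23 was no venous-restricted transcript here: it was found in 56.9% and 52.4% of cells of the general capillary gate (median UMIs 3554 and 3797), and Vwf in 27.2% and 20.3% of them.

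The groups differed between libraries in different ways. Cells with Slc6a2 were 2.76% of the WT and 3.03% of the KI endothelial gate, a log2 share ratio of 0.13 (-0.23 to 0.50), an interval that spans 0. Cells without Slc6a2 were 8.46% and 4.92%, a log2 share ratio of -0.78 (-1.04 to -0.53). The whole gate stood between them at -0.50 (-0.70 to -0.29). The lower share of gated cells in KI thus lay in the cells without Slc6a2, and the cells with it took about the same share of both endothelial gates.

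**Figure D1:**
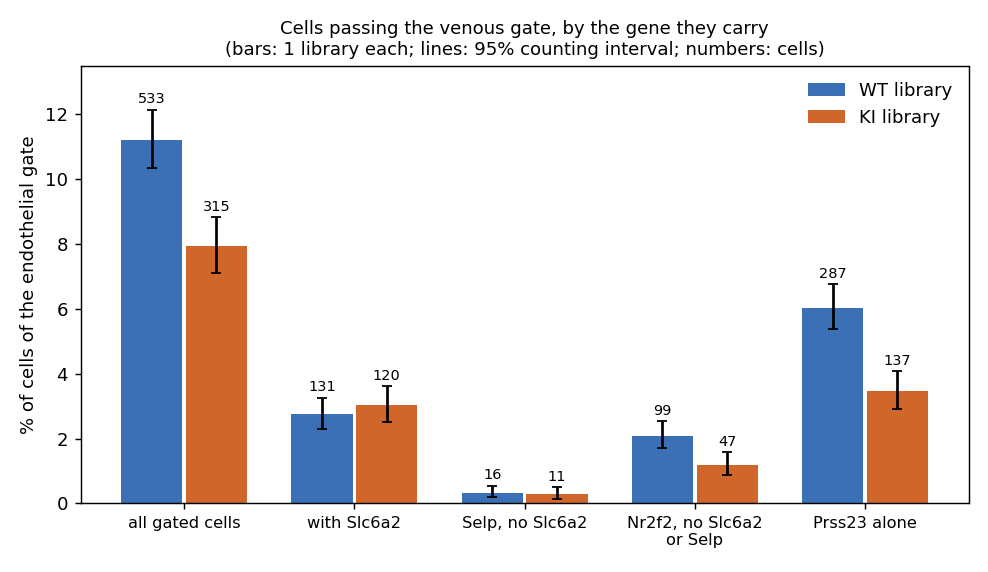
Bars give the share of the endothelial gate (y axis, percent) held by all gated cells and by 4 groups of them, in the WT (blue) and KI (orange) library; lines are 95% counting intervals and the numbers are cells. The bars of cells with Slc6a2 are level at 2.76% and 3.03%, and those of cells that entered on Prss23 alone differ, at 6.04% and 3.46%.

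Chosen genes outside the rule differed between the same groups. Of 16 listed venous and 11 listed general capillary genes, 7 and 5 were used, so the sums describe picked members. Over the full lists the difference was smaller. In WT the 16 genes summed to 6056 CPM with Slc6a2 and 3199 CPM without, and the 11 to 7992 and 12887 CPM. In KI they summed to 5053 and 3201 CPM and to 7217 and 12217 CPM. Slco2a1, left out of the 7, led the 16 in cells without Slc6a2 (36.2% of UMIs in WT, 42.5% in KI). Each gated cell was given a sum over 7 venous genes that the rule did not use: Bst1, an ADP-ribosyl cyclase of the cell surface, Amigo2, Car8, Cpe (carboxypeptidase E), Vcam1, Nrp2 and Adgrg6, the last of which arterial cells also carried. In cells with Slc6a2 the median was 12.7 UMIs per 10000 in WT and 9.37 in KI. In cells without Slc6a2 it was 0 in both libraries, and 54.0% of WT and 52.8% of KI cells had no UMI of the 7 genes. A sum over 5 general capillary genes (Gpihbp1, which anchors lipoprotein lipase, Kit, Lpl, Plvap and Sema3c) ran the other way, with medians of 33.4 and 28.5 in cells with Slc6a2 and of 74.3 and 76.4 in those without. The ranges overlapped: the highest venous sum among WT cells without Slc6a2 was 74.6, and some cells with Slc6a2 had no UMI of the 7 genes (7.63% in WT and 5.83% in KI).

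**Figure D2:**
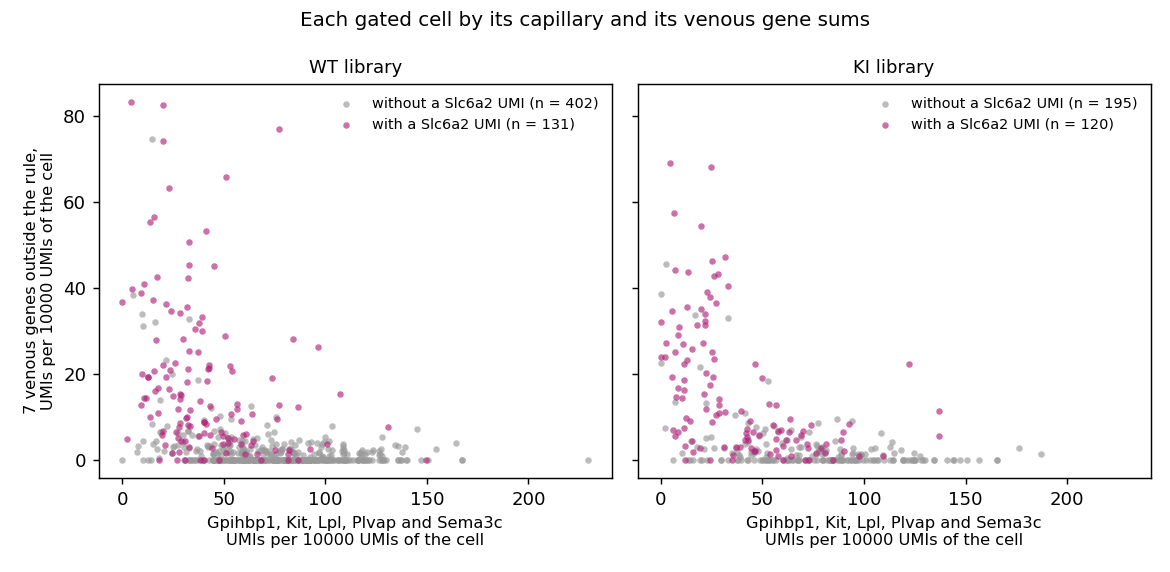
Each point is 1 gated cell, placed by its UMIs per 10000 of 5 general capillary genes (x axis) and of 7 venous genes that the gate did not use (y axis), with cells that carry Slc6a2 in magenta and the others in grey. High venous sums belong mostly to magenta cells at low capillary sums, and most grey cells lie on the x axis, where 54.0% of WT and 52.8% of KI cells without Slc6a2 are at 0.

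Cells at the edge of the gate were alike in Gpihbp1 to those just outside it. At the threshold on the 4 genes, Bst1 read higher inside than just outside, with no counting interval computed. WT cells with exactly 2 UMIs over the 4 genes (n = 111) read 25.5 CPM of Bst1 and 2404 CPM of Gpihbp1, and those with 1 (n = 155), just outside, 10.8 and 2386 CPM. In KI the cells inside (n = 76) read 14.5 and 2062 CPM and those outside (n = 103) 2.11 and 2464 CPM. Cells with at least 2 Vwf UMIs and none of the 4 genes read 10.8 CPM of Bst1 in WT (n = 246) and 13.9 CPM in KI (n = 137). The KI value just outside was thus below those on both sides of it. At the Vwf threshold, WT cells with 2 UMIs (n = 102) read 32.5 CPM of Bst1 and 2251 CPM of Gpihbp1, and those with 1 (n = 151) 18.8 and 2141 CPM. In KI the values were 36.6 and 2099 CPM inside (n = 67) and 38.8 and 2042 CPM outside (n = 99). Vcam1 read 55.2 CPM inside and 15.01 CPM outside the Vwf threshold in WT, and 84.5 and 7.05 CPM in KI. At the threshold on the 4 genes it was level in WT, at 32.8 CPM inside and 32.4 CPM outside, and read 43.6 and 16.9 CPM in KI. Because the groups differed in venous and capillary genes, the 2 groups are called gated cells with and without Slc6a2 from here on.

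The leading genes are given as a description, since they hold the gate's own genes. Ranked by fold over the other endothelial cells, the 10 leading genes of cells with Slc6a2 were Slc6a2, Tmem45a, Cpe, Lpcat2, Car8, Igfbp5, Ptgs2, Foxc1, Bst1 and Selp. Those of cells without it were Vwf, Nr2f2, Prss23, Fabp4, Vegfc, Lbp, Samd5, Fbln5, Rflnb and Kcnh1. Neither list held a marker of arterial, capillary or lymphatic cells. The level of Gpihbp1 in cells without Slc6a2, 2298 CPM in WT and 2119 CPM in KI, was close to that of the general capillary gate, 2308 and 2292 CPM, while cells with Slc6a2 had 881 and 952 CPM.

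Across the whole gate, 67 of the 3395 genes with at least 50 CPM in both libraries (1.97%) were more than 1 log2 unit above the other endothelial cells in both libraries and 44 (1.3%) more than 1 below. The cells were chosen on transcripts of the same libraries, so these counts describe the gate. Cpe, the highest outside the rule in WT among the genes named, read 73.3 CPM in WT gated cells against 3.10 CPM in the others and 143 against 6.39 CPM in KI. Ptgs2, the inducible cyclooxygenase that starts prostaglandin synthesis, read 60.4 against 3.29 CPM in WT and 102 against 6.97 CPM in KI. Igfbp5, a secreted binding protein of insulin-like growth factors, read 178 against 22.2 CPM and 291 against 11.2 CPM, and its log2 ratio of 4.70 in KI was above the 4.49 of Cpe. Ch25h, which makes 25-hydroxycholesterol, read 109 against 12.4 CPM and 138 against 10.4 CPM.

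The 15 genes named as highest also included matrix and signalling genes of larger vessels. Fbln5 (fibulin-5, an elastic fibre protein) had log2 ratios over the other endothelial cells of 2.48 in WT and 2.52 in KI, and Vegfc, the lymphatic growth factor, of 2.07 and 2.11. Lbp, the lipopolysaccharide-binding protein, read 277 against 56.1 CPM in WT and 387 against 83.0 CPM in KI. Samd5 had 2.59 and 3.06, Vcam1 2.49 and 3.19, Cytl1 2.27 and 4.16, Amigo2 2.26 and 2.90, Bst1 3.17 and 3.68, and Adgrg6 1.88 and 2.12. Adgrg6 was as high in the arterial gate, at 187 CPM in WT and 246 CPM in KI, as in gated cells with Slc6a2, at 201 and 175 CPM. AU021092 had 2.33 and 2.39, and Rgs5, a regulator of G protein signalling better known from pericytes, 2.11 and 2.15. The 10 mural marker genes, Pdgfrb among them, summed to 165 CPM in WT gated cells and 211 CPM in KI. Their part in the Rgs5 value was not tested.

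The 10 genes lowest in gated cells were mainly those of the aerocyte. Cells of the aerocyte gate were 2437 of the 4219 other endothelial cells in WT and 2113 of 3650 in KI. The 11 aerocyte markers summed to 1900 CPM in WT and 1712 CPM in KI gated cells. They summed to 1473 and 1525 CPM in the general capillary gate and 2022 and 1806 CPM in the arterial gate. Low levels of aerocyte genes were thus not particular to gated cells. Car4, a carbonic anhydrase of the gas-exchange surface, read 281 CPM in WT gated cells against 1683 CPM in the others, and 242 against 1370 CPM in KI. Ednrb, the endothelin receptor B, read 86.8 against 879 CPM and 72.5 against 741 CPM, and Fibin 89.3 against 1058 CPM and 75.7 against 946 CPM. Kdr (VEGF receptor 2) was 2.00 log2 units lower in WT gated cells than in the others, at 255 against 1018 CPM, and read 205 against 749 CPM in KI. Igfbp7, Clu, Emp2, Ptp4a3, AW112010 and Nhlrc2 completed the list, with log2 ratios from -2.88 (AW112010 in WT) to -1.63 (Nhlrc2 in KI).

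The 16 listed venous genes outside the rule summed to 6056 CPM in WT cells with Slc6a2 and 3199 CPM in those without, and to 5053 and 3201 CPM in KI. The other endothelial cells summed to 2738 and 2564 CPM. Cells with Slc6a2, the smaller group, held 4228 of the 11948 UMIs of these genes in WT gated cells and 4720 of 8753 in KI. Between cells with and without Slc6a2, 28 of 3395 genes (0.825%) were more than 1 log2 unit higher and 36 (1.06%) more than 1 lower in both libraries. Ptgs2 read 261 CPM in WT cells with Slc6a2 and 2.49 CPM in those without, and 229 against 7.94 CPM in KI. Igfbp5 read 735 against 16.6 CPM in WT and 610 against 54.8 CPM in KI. Cpe read 285 against 12 CPM and 312 against 18.3 CPM, Vcam1 447 against 38.9 CPM and 501 against 73.8 CPM, and Car8 172 against 8.70 CPM and 158 against 6.35 CPM. Also higher with Slc6a2 were Ptgis (prostacyclin synthase), at 140 against 28.6 CPM in WT and 154 against 19.1 CPM in KI, and Bgn (biglycan), at 451 against 88.3 CPM and 486 against 72.2 CPM.

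Lrg1, a secreted glycoprotein of inflamed venules, read 1051 CPM in WT cells with Slc6a2 against 165 CPM without, and 632 against 164 CPM in KI. Vegfc and Lbp were shared more evenly. Vegfc read 232 CPM with and 133 CPM without Slc6a2 in WT, and 180 and 96.0 CPM in KI, and the general capillary gate had 58.8 and 52.9 CPM. Lbp read 643 and 171 CPM in WT and 583 and 242 CPM in KI. In the other direction, Prss12 read 4.30 CPM in WT cells with Slc6a2 and 80.0 CPM in those without, and 16.1 against 104 CPM in KI. Sema3g, a semaphorin of arterial-side endothelium, read 53.0 against 275 CPM and 69.6 against 318 CPM, and Plat (tissue plasminogen activator) 183 against 806 CPM and 252 against 939 CPM. Efnb2, the arterial ephrin ligand, read 127 against 371 CPM and 146 against 447 CPM.

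**Figure D3:**
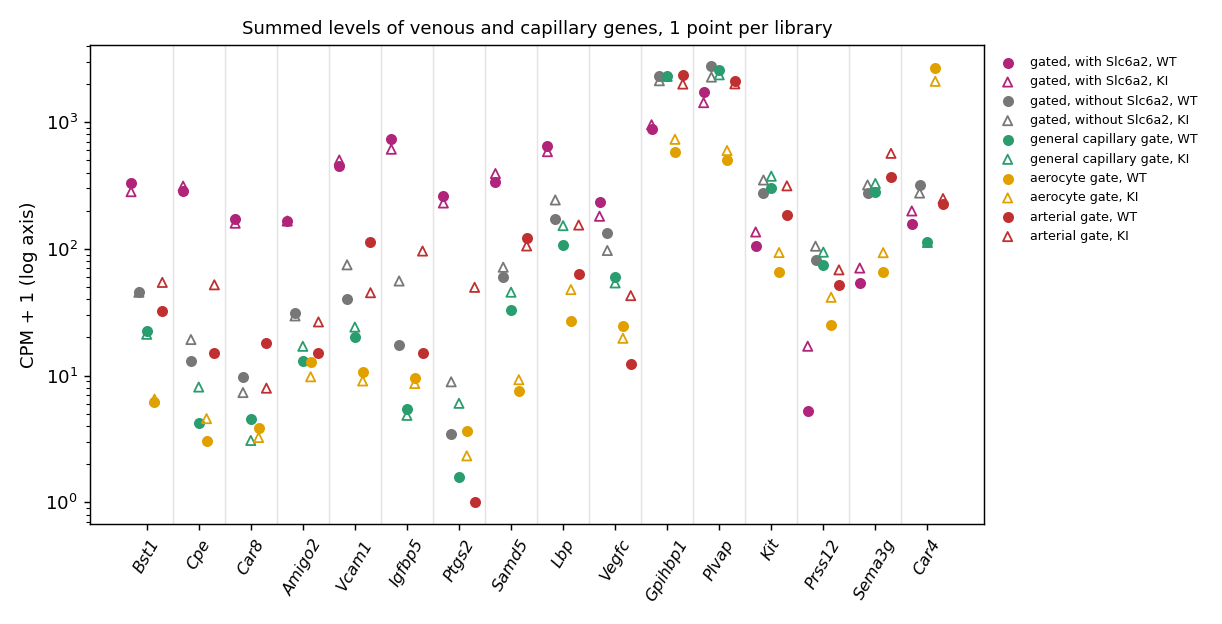
Points give the summed level (y axis, CPM + 1, log axis) of 16 genes in 5 groups of endothelial cells, filled circles for WT and open triangles for KI, 1 point per library. From Bst1 to Samd5 the magenta points of cells with Slc6a2 stand above all others, and for Gpihbp1, Kit, Prss12 and Sema3g they stand below the grey points, which sit near the green points of the general capillary gate.

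Markers of other cell types were looked for in the gate. Of the lymphatic list, Mmrn1 was at 0 in both libraries and Ccl21a, Reln and Prox1 had 0 to 1.82 CPM, while Lyve1 read 4119 and 3914 CPM. Lyve1 was as high in the general capillary gate, at 3674 and 3935 CPM, so it did not set lymphatic cells apart here. Platelet markers summed to 87 UMIs in WT and 109 in KI, led by the integrin gene Itgb3 with 41.4% and 66.1% of them. Pulmonary vein cardiomyocyte markers summed to 66 and 73 UMIs, mostly of Myl4. Erythroid markers summed to 11 UMIs in WT and 3572 in KI, of which 1 KI cell held 3490. The highest sums in a KI cell were 1430 epithelial, 151 leukocyte and 144 mural marker UMIs. Whether these maxima fell in the same cell was not looked at. Lyz2 made up 93.9% of the leukocyte marker UMIs of KI gated cells. These 4 KI maxima all stood among cells with Slc6a2.

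The main comparison set KI beside WT in gated cells. The level filter asked for 50 CPM or more, and for detection in 10% of gated cells or more, in at least 1 library. Of the 3928 genes that passed, 270 (6.87%) were more than 0.5 log2 units higher in KI and 208 (5.3%) more than 0.5 lower. In the cells with Slc6a2 the counts were 370 (9.42%) and 309 (7.87%) of the same genes, and in those without 309 (7.87%) and 240 (6.11%). The other endothelial cells, 4219 in WT and 3650 in KI, gave 160 (4.07%) and 84 (2.14%). The groups differ in cell number, so these counts do not rank them. The median log2 ratio over the 3928 genes was 0.01.

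Cyp26b1, the cytochrome P450 that breaks down retinoic acid, ranked first by the bound of its counting interval nearest to 0. Gated cells read 178 CPM in WT and 33.3 CPM in KI, a log2 ratio of -2.42 (-2.79 to -2.07). Cells with Slc6a2 read 318 and 42.8 CPM (-2.89, -3.42 to -2.40), cells without it 138 and 26.2 CPM (-2.39, -2.96 to -1.87), and the other endothelial cells 87.5 and 14.4 CPM (-2.61). Cyp26b1 UMIs occurred in 46.2% of gated cells in WT and 14.6% in KI, at median depths of 5397 and 5999 UMIs, and in 22.3% and 6.25% after thinning to 2000 UMIs. The arterial gate read 232 CPM of Cyp26b1 in WT and 62.7 CPM in KI, the general capillary gate 142 and 25.2 CPM and the aerocyte gate 38.2 and 6.44 CPM, so the level was lower in KI in each group given. In WT, 52.9% of arterial cells and 51.1% of gated cells with Slc6a2 held Cyp26b1, and 27.4% and 24.8% after thinning.

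The other 11 genes lowest in KI were also lower in each group. Nckap5 read 226 CPM in WT and 51.1 CPM in KI gated cells (-2.15, -2.45 to -1.86), Fbxw10 69.1 and 16.9 CPM (-2.03), and Arhgap28, a GTPase-activating protein, 80.7 and 22.3 CPM (-1.85). Tmem252, a membrane protein gene, read 1508 and 692 CPM (-1.12), with 1969 and 713 CPM in cells with Slc6a2. Mt1 (metallothionein 1, which binds zinc and copper) read 684 and 268 CPM (-1.35), Tspan8 284 and 120 CPM, Akap12 742 and 333 CPM, and the chromatin remodeller gene Chd7 111 and 43.3 CPM. Sh3pxd2a, Ablim1 and Map2k3 had log2 ratios of -1.23, -1.08 and -1.10. In the other endothelial cells the 12 genes had log2 ratios from -2.61 (Cyp26b1) to -0.64 (Ablim1), so none was particular to gated cells by direction.

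Haemoglobin genes were left out of the ranking; Hbb-bs read 2.57 CPM in WT and 985 CPM in KI gated cells, with 97.5% of the KI UMIs in 1 cell. The ranked genes highest in KI were led by the inducible heat-shock genes Hspa1a and Hspa1b, which encode HSP70 chaperones that refold damaged proteins. Hspa1a read 428 CPM in WT and 1321 CPM in KI gated cells, a log2 ratio of 1.63 (1.53 to 1.72), and 28.0% of WT and 50.2% of KI cells held it. Hspa1b read 268 and 810 CPM (1.60, 1.48 to 1.72). In cells with Slc6a2 the log2 ratios were 1.08 and 0.86, in cells without it 1.74 and 1.84, and in the other endothelial cells 0.46 and 0.95. The genes are near-identical neighbours on chromosome 17, so the split of reads between them is uncertain. Hspb1, a small heat-shock protein, read 457 and 1077 CPM in gated cells (1.24, 1.14 to 1.33) and 1277 and 1124 CPM in the other endothelial cells (-0.18). The stress-induced transcription factor gene Atf3 read 128 and 301 CPM (1.23), of which 1 KI cell held 24.1%.

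A further 4 were higher in KI in both groups of gated cells: Rasgrp2, an activator of Rap GTPases, with 35.7 and 103 CPM in all gated cells (1.54, 1.20 to 1.88), Rnd1 with 30.2 and 88.0 CPM (1.54), Twf2 (twinfilin-2, an actin-binding protein) with 20.6 and 58.3 CPM, and Slc31a2, a copper transporter family member, with 25.7 and 67.9 CPM (1.40). Net1, a guanine nucleotide exchange factor, read 46.0 and 109 CPM (1.25), with an interval that spans 0 in cells without Slc6a2 (0.50, -0.07 to 1.06).

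The last pair had large shares of their UMIs in single cells. Fabp4, a fatty acid-binding protein, read 113 and 310 CPM (1.46). One cell held 33.5% of its UMIs in WT and one 32.5% in KI, and its ratio was -0.61 in cells with Slc6a2 and 2.22 in those without. Sftpa1, a surfactant gene of epithelial cells, read 65.6 and 178 CPM (1.44), and 1 KI cell held 69.7% of its KI UMIs. With cells of 50 or more UMIs of other cell types' markers left out, the Sftpa1 log2 ratio was -0.08.

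**Figure D4:**
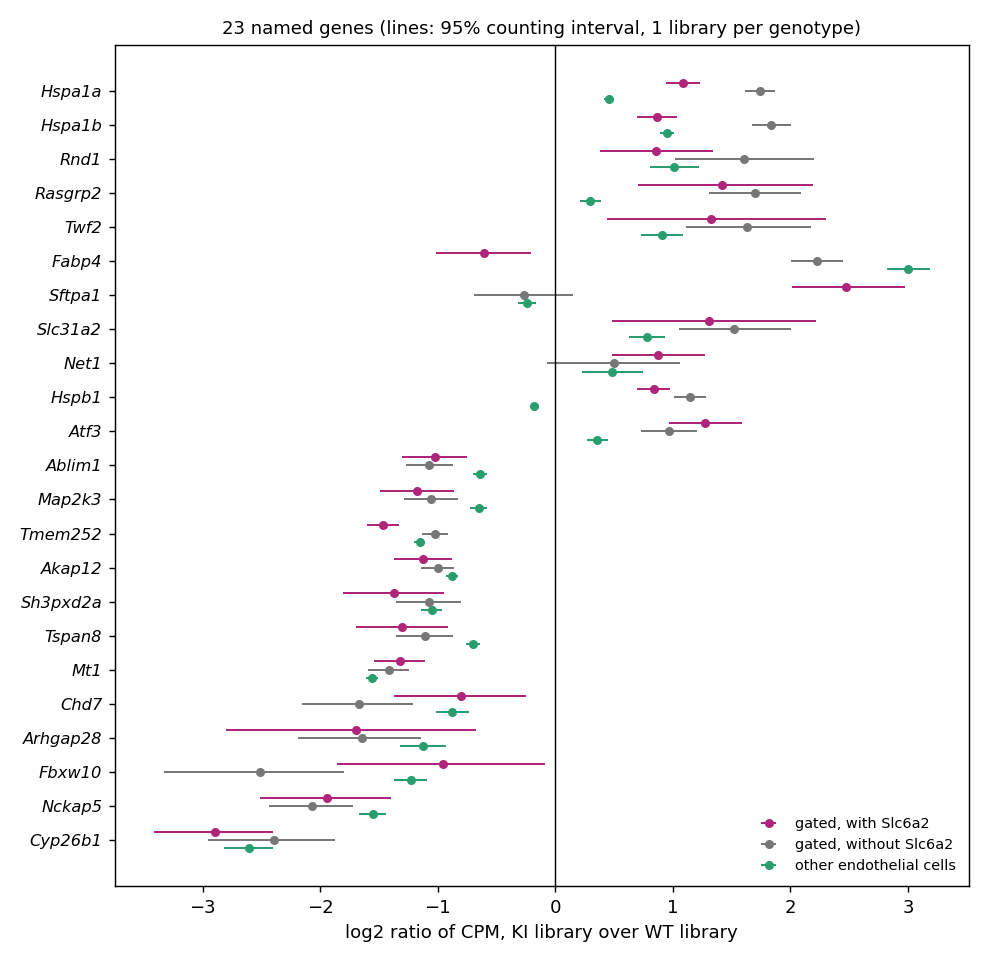
Points are log2 ratios of CPM, KI over WT (x axis), for 23 genes (y axis) in gated cells with Slc6a2 (magenta), gated cells without it (grey) and the other endothelial cells (green); lines are 95% counting intervals. The 12 genes lower in KI lie left of 0 in all 3 groups, while Fabp4, Sftpa1 and Hspb1 change side between groups.

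Gene lists were then read through, with members of at least 20 UMIs over both libraries' gated cells. Of all 10553 such genes, 1609 (15.2%) were more than 0.5 log2 units higher in KI and 910 (8.62%) lower, with a median log2 ratio of 0.05. The list counts below are to be read beside these shares. Of 15 other venous genes, 4 were higher (Vcam1, Cpe, Car8 and Amigo2) and 1 lower (Ackr3, a scavenger receptor for CXCL12, 552 and 328 CPM, -0.75), with a median of 0.20. Within cells with Slc6a2 the median was -0.20 and within those without 0.07. Vcam1, the adhesion receptor for integrin alpha-4 beta-1, read 130 and 256 CPM in all gated cells (0.97, 0.78 to 1.16) and 447 and 501 CPM in cells with Slc6a2 (0.17, -0.04 to 0.38). Cpe had 0.97 in all gated cells and 0.13 (-0.14 to 0.40) in cells with Slc6a2, Car8 0.65 and -0.12, and Amigo2 0.52 and 0.00. In cells without Slc6a2, Vcam1 read 38.9 and 73.8 CPM (0.92, 0.49 to 1.35), Cpe 12 and 18.3 CPM (0.60, -0.25 to 1.44), and Car8 and Amigo2 had -0.45 and -0.08. A single KI cell held 24.6% of the KI Vcam1 UMIs. Cells with Slc6a2 were 24.6% of the WT and 38.1% of the KI gate. One setting, chosen after seeing the data, weighted cells with and without Slc6a2 alike in both libraries. It gave 262 genes higher and 201 lower under the level filter, beside 270 and 208 as reported. The part of the unlike shares in the ratios of these venous genes was not tested.

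Within the cells with Slc6a2, the gate's own genes were lower in KI, which is given as a description. These cells were picked by fixed UMI limits on the same genes. They were deeper in KI, with medians of 6177.5 UMIs against 4573 in WT. A fixed UMI limit therefore stood for a lower CPM in a typical KI cell, and its part in these ratios was not tested. Vwf read 3331 CPM in WT and 2532 CPM in KI (-0.40, -0.48 to -0.31), Prss23 2489 and 1860 CPM (-0.42), Nr2f2 539 and 306 CPM (-0.81, -1.04 to -0.59) and Slc6a2 itself 1945 and 1576 CPM (-0.30). Selp read 440 and 139 CPM in cells with Slc6a2 (-1.66, -1.97 to -1.36) and 33.1 and 99.2 CPM in those without (1.58, 1.17 to 2.01). One cell carried 12.1% of all WT Selp UMIs in the gate, and one 15.7% of those in KI. Ackr1, the chemokine-binding receptor of venules, had the same pattern, at 40.1 and 8.56 CPM with Slc6a2 and 8.29 and 24.6 CPM without, and 1 KI cell held 46.2% of its KI UMIs.

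Other genes of cells with Slc6a2 were read by the same ranking. Rasd1, a glucocorticoid-induced Ras-like gene, read 75.9 CPM in WT and 11.8 CPM in KI (-2.69, -3.77 to -1.73). Osmr, the receptor for oncostatin M, read 219 and 83.5 CPM (-1.39, -1.80 to -0.99), and its shared subunit Il6st (gp130) 514 and 317 CPM (-0.70). Cebpb, a transcription factor gene of the acute phase, read 622 and 257 CPM (-1.27), and Lrg1 1051 and 632 CPM (-0.73). In cells without Slc6a2, Osmr had -0.37, Cebpb -1.15, Il6st -0.47 and Lrg1 -0.01. Lfng, a sugar transferase that modifies Notch receptors, read 12.9 and 86.7 CPM with Slc6a2 (2.75, 1.75 to 3.93) and 37.7 and 49.2 CPM without (0.38). Hey1, a Notch target, read 18.6 and 63.2 CPM with Slc6a2 (1.76, 0.88 to 2.75) and 114 and 165 CPM without (0.54). Gsto1, Sncg, Sftpc, Lyz2, S100a6 and Capg were also among the 8 highest there, and for these 1 KI cell held from 20.6% (Capg) to 54.9% (Sftpc) of the gate's UMIs. In cells without Slc6a2, Spp1 (osteopontin) read 129 and 12.7 CPM (-3.34, -4.17 to -2.62), and in those with it 35.8 and 13.9 CPM; 1 WT cell held 25.3% of the gate's WT UMIs. Hmgb2, a chromatin protein gene of dividing cells, read 81.2 and 191 CPM without Slc6a2 (1.23) and 179 and 165 CPM with it.

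Storage granule and coagulation genes were mixed. Of 12 Weibel-Palade body genes, 3 were higher and 1 lower, with a median of 0.13. Rab27a, a GTPase that holds these granules at the cell edge, read 43.7 and 97.5 CPM (1.16, 0.84 to 1.48) in gated cells, 0.53 in those with Slc6a2 and 1.08 in the other endothelial cells. Hps6 and Rab3d were the others above 0.5, and Angpt2, stored in the granules, read 8.68 and 5.01 CPM (-0.79, -1.95 to 0.27). Of 13 coagulation and fibrinolysis genes, 3 were higher and 3 lower. Procr, the protein C receptor, read 36.0 and 68.8 CPM (0.94), and 0.23 (-0.20 to 0.67) in cells with Slc6a2. Thbd (thrombomodulin) read 1396 and 1642 CPM (0.23). F2r, a thrombin receptor, read 49.8 and 24.2 CPM (-1.04, -1.52 to -0.59) and Plaur, the urokinase receptor, 320 and 165 CPM (-0.95, -1.13 to -0.78).

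Leukocyte adhesion genes were counted in the same way. Of 17 measured, 2 were higher (Vcam1 and Sele) and none lower, with a median of 0.11. These counts were not tested against the 15.2% higher and 8.62% lower of all 10553 genes. Icam1 read 647 and 859 CPM in all gated cells (0.41), 1153 and 1176 CPM with Slc6a2 (0.03, -0.10 to 0.16) and 501 and 625 CPM without (0.32). Sele (E-selectin) read 5.14 and 13.7 CPM and was found in 1.31% and 1.59% of cells. Of 16 chemokine and cytokine genes 4 were higher and 2 lower. The highest, Il6, read 3.21 and 10.5 CPM, with 30.4% of the KI UMIs in 1 cell, and the lowest, Cxcl2, 8.68 and 1.82 CPM (-2.25, -4.23 to -0.73). Of the amine genes other than Slc6a2, the oxidase gene Maoa, which breaks down noradrenaline, read 103 and 51.5 CPM (-0.99, -1.32 to -0.68).

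Among vessel identity and Notch genes, 4 of 22 were higher and none lower, with a median of 0.02. Sox18, a transcription factor gene of vessel and lymphatic development, read 72.6 and 155 CPM (1.09, 0.85 to 1.34), with 1.15 in the other endothelial cells. Sox17 read 86.1 and 125 CPM (0.54) and the Notch ligand gene Dll4 46.0 and 74.3 CPM (0.69). Foxc1 read 14.5 and 28.3 CPM in all gated cells (0.97) but 57.3 and 55.7 CPM in those with Slc6a2 (-0.04, -0.66 to 0.59). Klf2, the flow-responsive factor, read 1132 and 1600 CPM (0.50, 0.43 to 0.57). Of 18 vasomotor genes 2 were higher and 2 lower. Ptgs2 had 0.76 in all gated cells and -0.19 (-0.48 to 0.11) in cells with Slc6a2.

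Retinoid, BMP and matrix genes moved in both directions. Of 10 retinoid genes, 3 were higher and 4 lower: besides Cyp26b1, the receptor gene Rarb read 9.96 and 4.10 CPM (-1.28), the retinal reductase gene Dhrs3 30.2 and 17.3 CPM (-0.80) and Lrat 7.39 and 3.19 CPM, while Rarg read 10.3 and 26.9 CPM (1.39). Of 12 BMP genes, 3 were higher and 2 lower. Bmp6 read 393 and 188 CPM (-1.07, -1.23 to -0.90) and Smad1 194 and 120 CPM (-0.69), while Id3, a target of the pathway, read 306 and 537 CPM (0.81, 0.69 to 0.94) and Bmp4 29.2 and 58.8 CPM (1.01). Of 23 large vessel matrix genes, 5 were higher and 4 lower. Mgp (matrix Gla protein) read 164 and 351 CPM (1.09) and Lox, which crosslinks collagen and elastin, 17.4 and 4.10 CPM (-2.08). Of 13 VEGF and angiopoietin genes 1 was higher and 1 lower, with a median of -0.24.

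Of 19 endoplasmic reticulum chaperone genes, 5 were lower in KI (Hspa5, Creld2, Calr, Xbp1 and Pdia6), none was higher and 14 lay between, with a median of -0.33. Hspa5 (BiP) read 672 and 387 CPM (-0.80, -0.91 to -0.68), and Calr (calreticulin) 609 and 401 CPM (-0.60). The median was -0.29 in cells with Slc6a2, -0.28 in those without and -0.28 in the other endothelial cells. Antigen presentation genes had 2 of 16 higher: Cd74, the class II invariant chain, read 364 and 553 CPM (0.60, 0.49 to 0.72), and the class II regulator gene Ciita 2.25 and 5.93 CPM.

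**Figure D5:**
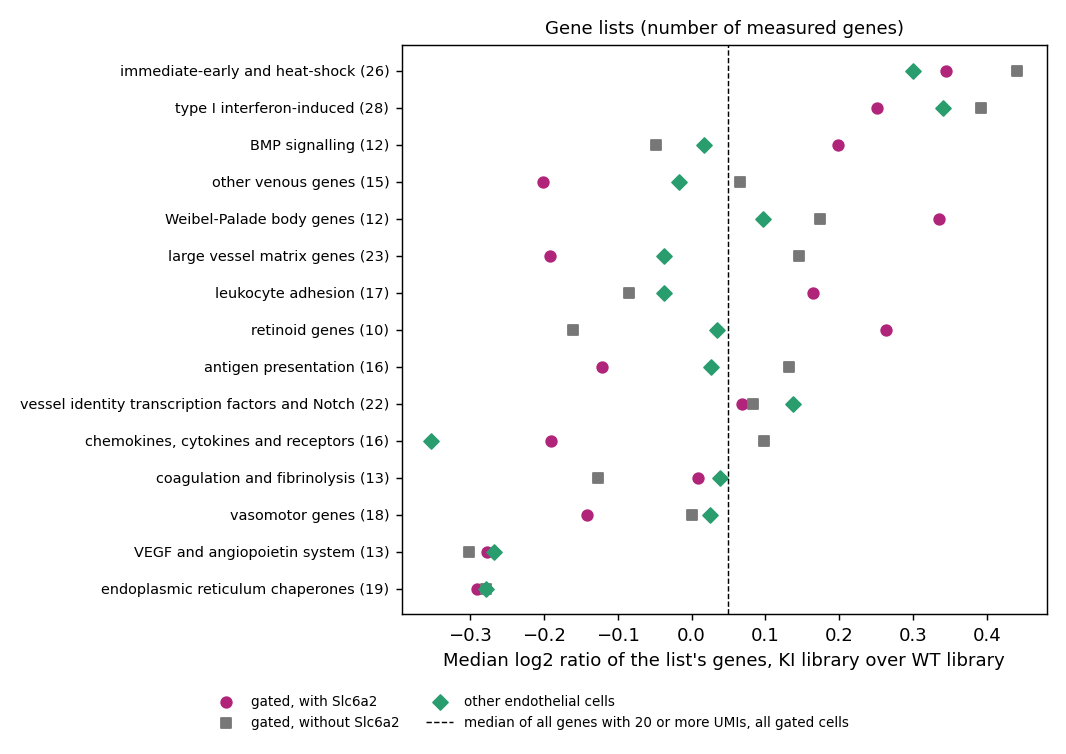
Symbols give the median log2 ratio, KI over WT (x axis), of each gene list (y axis, with the number of measured genes) in gated cells with Slc6a2, gated cells without it and other endothelial cells; the dashed line is the median of all genes with at least 20 UMIs, at 0.05. Immediate-early, heat-shock and interferon lists lie right of the line and chaperone and VEGF lists left of it in all 3 groups, while the list of other venous genes splits, at -0.20 with Slc6a2 and 0.07 without.

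Immediate-early and heat-shock genes gave the highest count. Of 26 measured, 12 were higher in KI and 2 lower, with a median of 0.47, and medians of 0.34 in cells with Slc6a2, 0.44 in those without and 0.30 in the other endothelial cells. Besides the HSP70 genes, Hsph1 read 45.3 and 103 CPM (1.19), Hspd1 66.2 and 121 CPM (0.87), Hspe1 61.7 and 112 CPM (0.86) and Dnajb1 91.0 and 158 CPM (0.80). Of the immediate-early genes Fos read 367 and 669 CPM (0.87), with 0.36 in cells with Slc6a2 and 0.98 in those without, and Junb 690 and 1028 CPM (0.57), with 0.12 and 0.62. Cebpb (416 and 201 CPM, -1.05) and Klf6 (690 and 444 CPM, -0.63) were the 2 lower.

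The bases before the start of 3 of these genes are shown because the genes were higher in KI together. Each run is 250 bases long and ends just before the start of the gene in RefSeq (GRCm38.p6), read 5' to 3' on the gene's strand. Capitals mark GAANNTTC, 2 units of the binding motif of heat-shock factor, which reads the same on both strands. Hspa1a lies at chr17:34972157-34972406 (minus strand), Hspa1b at chr17:34959239-34959488 (minus strand) and Hspb1 at chr5:135887669-135887918 (plus strand).
Hspa1a: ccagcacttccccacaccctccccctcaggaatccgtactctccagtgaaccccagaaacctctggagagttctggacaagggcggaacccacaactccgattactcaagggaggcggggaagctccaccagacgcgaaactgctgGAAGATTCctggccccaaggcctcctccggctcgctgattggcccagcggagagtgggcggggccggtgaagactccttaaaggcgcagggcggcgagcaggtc
Hspa1b: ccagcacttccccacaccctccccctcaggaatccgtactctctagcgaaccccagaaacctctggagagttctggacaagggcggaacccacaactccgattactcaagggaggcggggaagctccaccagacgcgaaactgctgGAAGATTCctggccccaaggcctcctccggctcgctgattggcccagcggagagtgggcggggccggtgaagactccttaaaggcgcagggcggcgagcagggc
Hspb1: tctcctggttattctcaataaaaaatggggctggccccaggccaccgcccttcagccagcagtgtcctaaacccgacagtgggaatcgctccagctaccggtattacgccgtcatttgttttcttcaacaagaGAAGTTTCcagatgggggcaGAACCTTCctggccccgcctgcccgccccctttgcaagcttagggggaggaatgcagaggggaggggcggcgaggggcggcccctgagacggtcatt
The runs of Hspa1a and Hspa1b differed at 3 of 250 bases and hold the motif at the same place, 104 bases before the start. That of Hspb1 holds it at 117 and 97 bases before the start. Of 10 heat-shock chaperone genes 8 had an entry and 6 of those (75%) held the motif, against 6.69% of 32851 promoters. Hsph1 and Dnajb1 had an entry and did not hold it. The stricter form of 3 units was held by 2 of the 8 (25%), Hspd1 and Hspe1, against 0.466% of promoters. None of the 3 printed runs held that form. A match is a description of the letters and no evidence of binding.

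Type I interferon-induced genes had 8 of 28 members higher and 1 lower, with a median of 0.30 in all gated cells, 0.25 in those with Slc6a2, 0.39 in those without and 0.34 in the other endothelial cells. Oasl2 read 49.5 and 114 CPM (1.20), Ifi27l2a 79.7 and 178 CPM (1.16), Ifit1, which binds foreign RNA ends, 34.4 and 74.8 CPM (1.12, 0.76 to 1.49) and Ifit3b 10.9 and 24.2 CPM (1.14). The one lower was Rsad2 (viperin), at 17.7 and 7.75 CPM (-1.19, -2.07 to -0.38), of which 1 WT cell held 50.9% of the WT UMIs. Bst2, the most abundant member named here, read 717 and 612 CPM (-0.23). Oasl2 had 1.23 and Ifit1 1.00 in the other endothelial cells, so neither was particular to gated cells.

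The runs of Ifit1 at chr19:34640639-34640888 and Ifit3b at chr19:34607707-34607956 (both plus strand) are printed in the same way. Capitals mark the core of the interferon-stimulated response element (GAAA, any 2 bases, GAAA) on either strand.
Ifit1: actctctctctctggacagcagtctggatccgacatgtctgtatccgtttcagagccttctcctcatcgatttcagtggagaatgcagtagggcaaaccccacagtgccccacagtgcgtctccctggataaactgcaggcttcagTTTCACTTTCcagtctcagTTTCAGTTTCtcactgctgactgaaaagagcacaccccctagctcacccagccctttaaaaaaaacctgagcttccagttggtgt
Ifit3b: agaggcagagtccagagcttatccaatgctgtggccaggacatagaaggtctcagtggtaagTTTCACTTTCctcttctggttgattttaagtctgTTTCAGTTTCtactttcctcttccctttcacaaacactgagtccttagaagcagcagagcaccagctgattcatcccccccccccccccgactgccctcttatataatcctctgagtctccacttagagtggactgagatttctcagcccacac
Both runs hold 2 matches, at 104 and 85 bases before the start in Ifit1 and at 188 and 154 bases in Ifit3b. Of 32 listed genes 22 had an entry and 10 of those (45.5%) held the element, against 2.98% of 32851 promoters.

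Signs of other cells and of single libraries moved with the comparison. Erythroid markers were found in 1.88% of WT and 21.9% of KI gated cells, and in 1.48% and 14.6% of the general capillary gate. Platelet markers were found in 10.3% and 21.3% of gated cells, and epithelial markers in 98.1% and 99.7%, led by Sftpc. Median mitochondrial shares were 5.01% and 4.67%. Without cells of 2 or more platelet marker UMIs, 273 genes were higher in KI and 198 lower, beside 270 and 208 as reported. Without cells of 50 or more UMIs of other cell types' markers, 272 were higher and 199 lower. That sum, also used for Sftpa1 above, took erythroid, leukocyte, mural, cardiomyocyte, fibroblast, mesothelial and epithelial markers. It left out Hopx of the epithelial list and all lymphatic and platelet markers. The part of these marker differences in single ratios was otherwise not tested.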

How the data were processed

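The deposited matrices hold raw UMI counts per gene and barcode from 2 libraries, per the file headers, which name software version 3.0.2. Build mm10, R 3.5.3, Seurat 2.3.4 and Cell Ranger 2.0 appear in the submitters' processing notes. The lowest barcode held 500 UMIs, and the matrices hold 31053 genes. Cells were selected on raw counts, and counts were summed over the cells of a library. Ratios carry exact conditional binomial intervals, levels exact Poisson and shares Clopper-Pearson intervals, all at 95% and for counting error only. With 1 library per genotype no test was run, and no p-value is given. For KI against WT, the 12 highest and 12 lowest genes by the interval bound nearest to 0 were named, of which 1 is not reported here. Against other endothelial cells, the 15 highest and 10 lowest with at least 50 CPM in both libraries were named. The rankings left out genes of the gate, haemoglobin, ribosomal, mitochondrial, antigen receptor and sex-linked marker genes and unnamed gene models. Further genes come from gene lists or from the same ranking in cells with and without Slc6a2. The gated cells and lists were chosen with earlier results of these data known. The automatic Scrublet threshold marked 0 barcodes, so doublets were kept. An alternative left out the highest scores at 0.8% per 1000 barcodes, 877 WT and 665 KI barcodes, of which 33 and 21 were gated. Counts and medians over gene lists use ratios with 0.5 added to each count. Interval code was tested on simulated data. Positions are from the GRCm38 annotation, and promoters from RefSeq GRCm38.p6 without chromosome 18. Python 3.11.15, numpy 2.4.6, scipy 1.17.1, pandas 2.3.3, scanpy 1.11.5 and matplotlib 3.10.9 were used. Alternatives covered the gate, marker, doublet, mitochondrial and depth limits, averaging, centring and the low-count filter.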

Additional observations from a re-analysis of the deposited data

Results flagged for a closer look

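For 10 log2 ratios of KI over WT, the values of 2 groups of endothelial cells lay on opposite sides of 0. With 1 library per genotype the difference between groups was not tested in any of them. Between gated cells with and without Slc6a2, Fabp4 had -0.61 and 2.22, Ch25h -0.53 and 0.66, Igfbp5 -0.27 and 1.72, and Car4 0.36 and -0.21. Between all gated cells and the other endothelial cells, Sftpa1 had 1.44 and -0.24, Hspb1 1.24 and -0.18, Igfbp5 0.71 and -0.98, Cytl1 0.83 and -1.06, Clu 0.89 and -0.06, and Igfbp7 0.22 and -0.05. For Fabp4 and Sftpa1 single cells held 32.5% and 69.7% of the KI UMIs of the gate.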

How the results depend on the processing

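No paired analysis was possible because each genotype has 1 library. Cells per library (533 WT and 315 KI) became 350 and 193 under a stricter gate, 15 and 7 without cells holding 2 or more lymphatic marker UMIs, 68 and 28 without cells holding 3 or more mural, cardiomyocyte, epithelial or leukocyte marker UMIs, 264 and 176 at a mitochondrial limit of 5%, and 226 and 123 after thinning to 2000 UMIs. Settings split by Slc6a2, and the one that left out cells with 50 or more UMIs of other cell types' markers, were chosen after seeing the data: 131 WT and 120 KI cells had Slc6a2, and 195 KI cells did not. The log2 share ratio (-0.50) was -0.84 and -1.02 under the lymphatic and the 3-UMI limits, 0.13 with Slc6a2 and -0.78 without. Genes higher in KI (270) numbered 1734 and 895 under those limits, 635 after thinning, 2251 with at least 5 UMIs in place of the level filter and 422 with Slc6a2. Genes lower (208) numbered 1923, 1007, 601, 1286 and 362. Against other endothelial cells, genes higher (67) numbered 112 after thinning, 149 with Slc6a2 and 41 without, and genes lower (44) 70 with Slc6a2. Signs turned for Fabp4 (-0.70 under the 3-UMI limit, -0.61 with Slc6a2), Sftpa1 (-0.33 thinned, -0.078 under the 50-UMI limit, -0.26 without Slc6a2), Twf2 (-0.89) under the 3-UMI limit, and Hspb1 (-0.26) and Atf3 (-0.60) under the lymphatic limit. The median KI over WT ratio of the mural markers (-0.89) turned to 0.74 under the 3-UMI limit and 1.5 after thinning. Without Slc6a2, Ptgs2 and Igfbp5 in WT gated cells stood -0.40 and -0.42 log2 units against other endothelial cells. Lyve1 made up 97.5% of the lymphatic marker UMIs of gated cells in WT and 97.3% in KI. A lymphatic marker UMI was found in 98.7% and 99.7% of gated cells. The 3-UMI limit counts epithelial markers, found in 98.1% and 99.7%. Both limits thus bore on nearly all gated cells. The cause of the shifts was not tested, and all of these settings but the 5-UMI one hold fewer cells. Of the KI over WT ratios of the 23 named genes over all settings, 265 stayed within their interval, 91 moved and 8 turned. Ratios of the genes named against other endothelial cells were less stable: 170 stayed within their interval, 178 moved and 2 turned. Cells and genes with few UMIs limit every value.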
